A study of Zea mays with 12 samples.

Results

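The maize read-count matrix of this study held 128 features whose Id, in place of a gene number, starts with REL and lists the known proteins that the sequence resembles. HS16A_WHEAT, for example, names a small heat shock protein of wheat. Of these 128 features, 66 reached at least 10 raw counts in at least 3 of the 12 libraries and are described here, out of 42976 features in the matrix. The minimum did not use treatment labels but could be met by 1 treatment alone. Within the 6 well-watered libraries 62 of the 66 reached it, and HS16A_WHEAT, OBP1A_MAIZE, PCF5_ORYSI and PRMS_MAIZE reached it only through the stressed libraries. A label gives a resemblance to a protein, mostly of another species, so the roles below are those of the named protein and not shown for maize. Where a label lists several proteins, the feature is called by the first, mostly without the prefix.

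The libraries came from primary root tips of the maize line FR697, grown in darkness at 29 °C in vermiculite wetted with 1 mM CaSO4. Water-stressed seedlings (WS) grew at a water potential of −1.6 MPa and well-watered seedlings (WW) at −0.02 MPa, and both were harvested 24 h or 48 h after transplanting. The groups WS24, WS48, WW24 and WW48 had 3 libraries each, every library from many pooled tips, and the study describes the replicates as independent experiments. A tip was 7 mm long in WS and 12 mm long in WW, so the effect of treatment and that of the segment taken cannot be told apart. WW48 matched WS48 in age and WW24 matched it in root length. Between 40005384 and 54863708 counts per library fell on features, and those with a similarity label took 0.297 to 0.352% of them. Tissue markers were not checked, since gene descriptions were at hand only for genes the study had listed as changed.

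Growing root tips are known to respond to low water potential with changes in chaperones, wall enzymes and hormone and defence signals. Heat shock proteins are chaperones that bind unfolding proteins, and heat shock factors switch on their genes. Pectin methylesterases remove methyl groups from wall pectin, 14-3-3 proteins bind phosphorylated partners and alter their activity, and ACC synthase makes the precursor of ethylene.

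Labels naming a grass protein were mostly detected, while labels naming a legume protein mostly had no count. Of 34 labels that named a grass protein, 27 reached the minimum, 5 had fewer counts and 2 had none. Of 58 that named an Arabidopsis protein and neither a grass nor a legume protein, 36 reached the minimum and 19 had none. Of 27 that named a legume protein and no grass protein, only GLYM_PEA reached the minimum and 25 had none. The 9 labels naming other species gave 2 features at the minimum and 6 without counts. Over the whole matrix 62.6% of features reached the minimum, and 51.6% of all labels did. The Arabidopsis labels, at 62.1%, were thus near the share of all features. Of the 15 labels with a pea protein, 14 were at 0 in all libraries. Ids end at 80 characters, and 7 of the 52 labels at 0 were cut there, 5 of them legume labels, so further names may be missing from these.

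**Figure D1:**
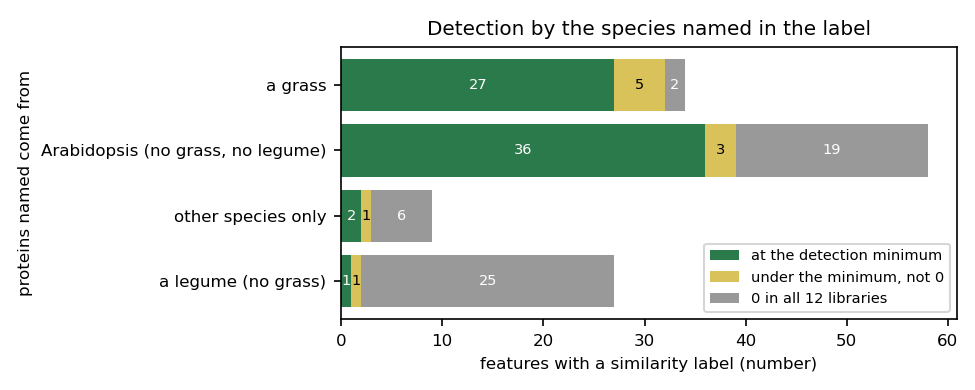
Number of features with a similarity label (x axis) by the species of the proteins named (y axis). Bar segments are features at the detection minimum, under it, and at 0 in all 12 libraries. The grass bar is mostly detected (27 of 34), the legume bar mostly at 0 (25 of 27).

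In all, 52 labels (40.6%) were at 0 in every library, against 17.2% of the annotated nuclear genes and 16.8% of the assembled transcripts. A feature with 0 counts over the 12 libraries could still have been present at up to 0.00556 CPM (counts per 1000000 counts on features). This limit covers only reads that could be assigned to the feature, and assignment between near-identical features is uncertain here. All 3 histone labels and 5 of the 9 labels of cytosolic ribosomal proteins were among those at 0, although such proteins are made in every growing cell. The features that did reach the minimum had the level of ordinary genes. Their median abundance was 12.0 CPM, against 11.3 CPM for tested nuclear genes and 0.988 CPM for tested assembled transcripts. These CPM values are shares of reads, since feature lengths are not given, and levels are not ranked between genes.

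All 66 features passed the low-count filter and were tested. Of their labels, 42 name a single protein, 35 start with an Arabidopsis protein, 19 with a rice protein, 6 with a maize protein and 6 with one of another species. Abundances below are in CPM on TMM-scaled library sizes. Changes are log2 fold changes with an approximate SE. Adjusted p-values come from the quasi-likelihood F-test of edgeR, adjusted by Benjamini and Hochberg's method over the 26746 features tested. Calls required a log2 change of 1 or more in either direction together with an adjusted p of 0.05 or less. A transcript called the same way in WS48 against WW48 and against WW24 was a differentially accumulated transcript (DAT). These 2 comparisons share the WS48 libraries.

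At 48 h, 7 of the 66 features were increased DATs and 2 were decreased DATs. The increased ones named a small heat shock protein, an Hsp70, a heat stress factor, a 14-3-3 protein, an oil-body protein, a TCP transcription factor and a pathogenesis-related protein. The decreased ones named a pectinesterase and an ACC synthase. The counts correspond to 10.6% and 3.03% of the 66, beside 5.53% and 4.03% of all features tested. No test of that difference was made, and 7 features are few. HS16A_WHEAT, OBP1A_MAIZE, PCF5_ORYSI and PRMS_MAIZE, 4 of the 7, entered only because they were high in stressed libraries, so a difference in that direction was built into their choice, and their values and tests are given as a description. The other 3 increased DATs and both decreased ones reached the minimum in well-watered libraries as well. The other 57 were not DATs, and the median log2 change over the 66 in WS48 against WW48 was −0.03, beside 0.01 over all features. Within 0.5 of 0 on the log2 scale lay 49 of the 66 (74.2%), against 63.9% of all features. In these bulk samples, fewer cells of a type and less RNA per cell cannot be told apart.

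**Figure D2:**
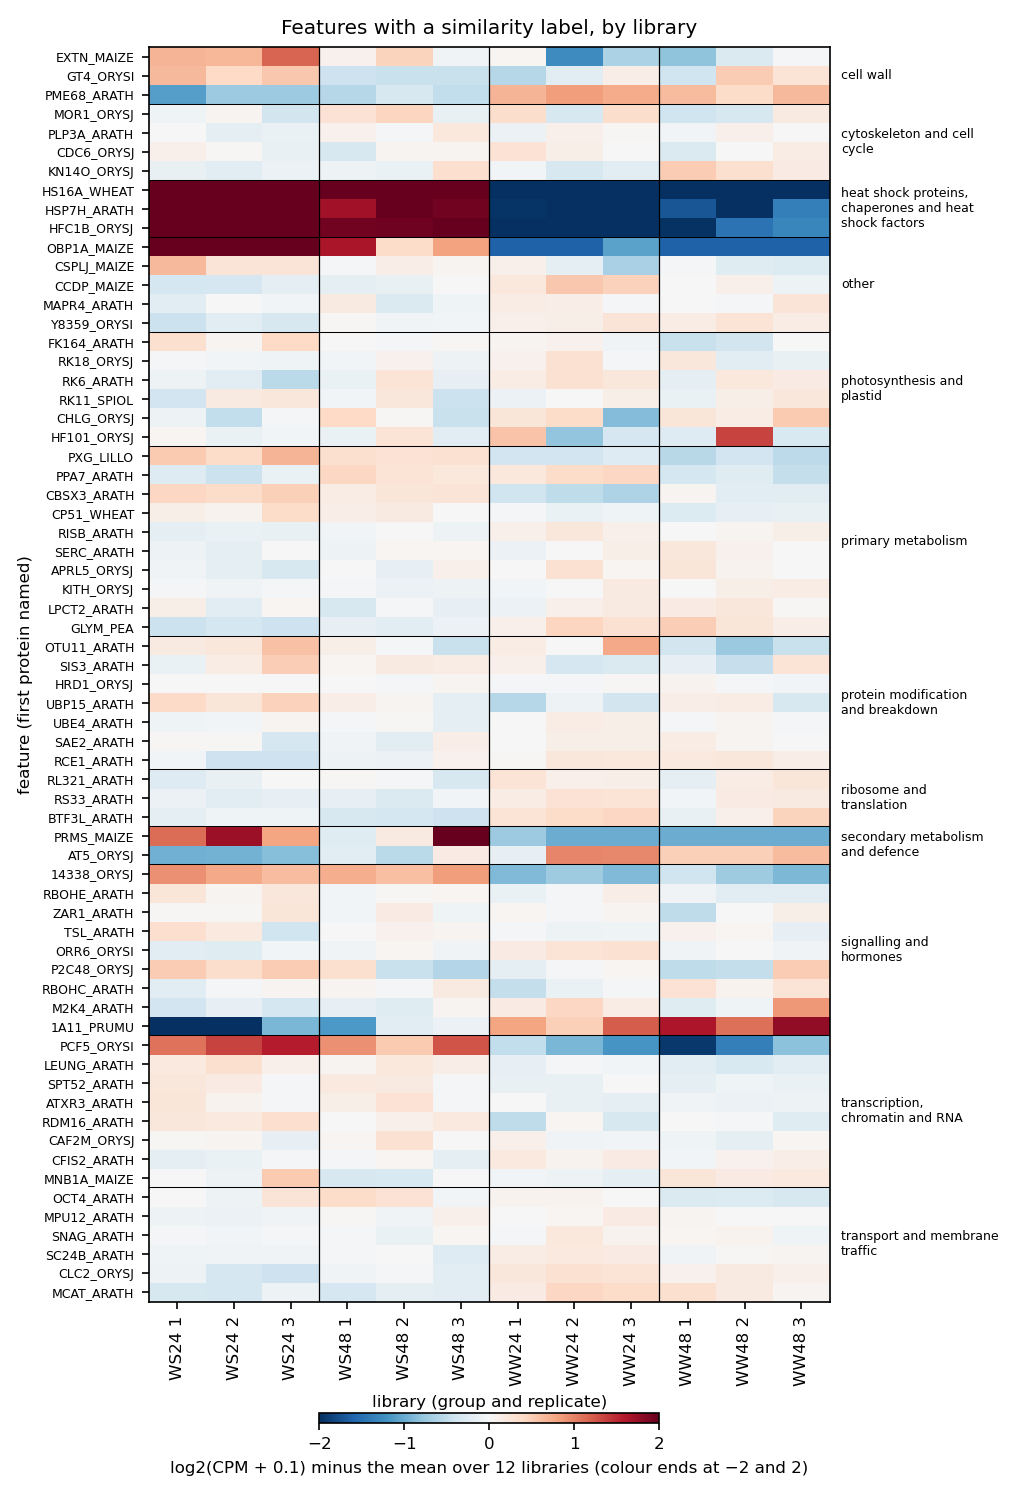
Each of the 66 features (rows, by role) in each of the 12 libraries (columns, group and replicate). Colour is log2(CPM + 0.1) minus the feature's mean over the libraries, red for higher and blue for lower, ending at −2 and 2. The 3 heat shock rows, OBP1A_MAIZE, REL-14338_ORYSJ and PCF5_ORYSI are redder in all 6 WS than in all 6 WW libraries, 1A11_PRUMU and PME68_ARATH bluer, and most rows are pale.

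All 3 features of the heat shock group were increased DATs, beside 5.53% of all features tested. HS16A_WHEAT entered only through the stressed libraries, so its direction was built into its choice. HS16A_WHEAT, which resembles a class I small heat shock protein of wheat, had 6.44, 11.8 and 8.65 CPM in WS48, against 0.0386, 0 and 0.0699 CPM in WW48 and 0.0638, 0.177 and 0.0229 CPM in WW24. In WS24 it had 24.0, 18.9 and 12.5 CPM. Every WS library was far above every WW library, where the transcript was close to absent. The log2 change was 7.83 ± 0.53 (SE, n = 3 each) in WS48 against WW48 (adjusted p = 3.07e-07), 6.68 ± 0.48 against WW24 (adjusted p = 4.77e-07) and 7.72 ± 0.47 in WS24 against WW24 (adjusted p = 1e-07). WW48 held only 5 counts in all, so the size of the first is loosely fixed. The labels HSP21_SOLPE, HSP16_SOYBN and HSP41_PEA, which also name small heat shock proteins, were at 0 in all 12 libraries.

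HSP7H_ARATH resembles an Arabidopsis member of the Hsp70 family, chaperones that use ATP to refold or hold client proteins. It had 3.81, 5.53 and 4.53 CPM in WS48, against 0.270, 0.0960 and 0.373 CPM in WW48 and 0.213, 0.177 and 0.0458 CPM in WW24, with 8.36, 5.75 and 4.72 CPM in WS24. No stressed library overlapped the well-watered ones. Its log2 change was 4.20 ± 0.41 in WS48 against WW48 (adjusted p = 6.11e-06), 4.96 ± 0.45 against WW24 (adjusted p = 3.3e-06) and 5.40 ± 0.45 in WS24 against WW24 (adjusted p = 1.27e-06).

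HFC1B_ORYSJ resembles heat stress transcription factor C-1b of rice. It had 6.30, 6.36 and 8.36 CPM in WS48 and 8.55, 9.86 and 8.92 CPM in WS24, against 0.328, 0.504 and 0.582 CPM in WW48 and 0.0638, 0.101 and 0.229 CPM in WW24. All stressed libraries were above all well-watered libraries, and the well-watered level was itself higher at 48 h than at 24 h in every library. The log2 change was 3.90 ± 0.27 in WS48 against WW48 (adjusted p = 3.34e-07), 5.71 ± 0.32 against WW24 (adjusted p = 6.41e-08) and 6.09 ± 0.32 in WS24 against WW24 (adjusted p = 3.07e-08).

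Annotated maize genes of the same families are given for context. Descriptions come from the study's own list of DATs, so the genes were chosen on these libraries and their directions are no independent evidence. Of 20 genes described there as heat shock proteins or chaperones, 14 were increased and 6 decreased DATs here. All 4 described heat shock factors were increased. The factor most changed, Zm00001d016255, had 21.4 ± 0.788 CPM in WS48 and 0.252 ± 0.157 CPM in WW48 (SD, n = 3 each).

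Among the 9 features for signalling and hormones, 1 rose and 1 fell. Over all features tested, 5.53% were increased and 4.03% decreased DATs. In so small a group, neither these calls nor the lack of others is read as a result. REL-14338_ORYSJ resembles the rice 14-3-3-like protein GF14-H. It had 128, 118 and 138 CPM in WS48, against 58.9, 47.4 and 41.7 CPM in WW48 and 41.9, 47.3 and 42.2 CPM in WW24, and 147, 131 and 119.6 CPM in WS24. All stressed libraries were at 118 CPM or more and all well-watered ones at 58.9 CPM or less. Its log2 change was 1.38 ± 0.12 in WS48 against WW48 (adjusted p = 2.17e-06), 1.55 ± 0.12 against WW24 (adjusted p = 9.16e-07) and 1.60 ± 0.12 in WS24 against WW24 (adjusted p = 5.44e-07). The 4 annotated 14-3-3 genes on the study's list split, with 2 increased and 2 decreased. Zm00001d003401, 1 of the decreased, averaged 459 ± 43.7 CPM in WS48 and 1396 ± 114 CPM in WW48 (SD, n = 3 each), so 14-3-3 transcripts moved in both directions. Genes of this family resemble each other closely, and reads shared between copies may have been assigned unevenly.

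1A11_PRUMU resembles an ACC synthase of Japanese apricot. It had 0.688, 1.40 and 1.51 CPM in WS48, against 5.28, 3.67 and 5.89 CPM in WW48 and 2.94, 2.33 and 3.94 CPM in WW24. In WS24 it had 0.309, 0.212 and 0.831 CPM. All 6 stressed libraries were below all 6 well-watered ones. The log2 change was −2.04 ± 0.40 in WS48 against WW48 (adjusted p = 0.00146), −1.35 ± 0.40 against WW24 (adjusted p = 0.0181) and −2.78 ± 0.45 in WS24 against WW24 (adjusted p = 0.000277). The call against WW24 was lost without WS48 replicate 1 (log2 change −1.07, adjusted p = 0.0734) and without WW24 replicate 3 (−1.13, adjusted p = 0.0742). The label 1A1C_SOYBN, which names a soybean ACC synthase, stayed under the detection minimum, with 8 counts over the 6 stressed and 24 over the 6 well-watered libraries. The study's list of DATs held 1 gene described as an ACC synthase, Zm00001d026060, so it was chosen on these libraries. It was a decreased DAT here, at 0.377 ± 0.116 CPM in WS48 and 3.84 ± 0.672 CPM in WW48 (SD, n = 3 each).

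The remaining 7 signalling features were not called at either time. They name respiratory burst oxidases, which make superoxide at the plasma membrane (RBOHC_ARATH and RBOHE_ARATH), and a protein phosphatase 2C (P2C48_ORYSJ). The others name a MAP kinase kinase (M2K4_ARATH), a cytokinin response regulator (ORR6_ORYSI), the kinase TOUSLED (TSL_ARATH) and a receptor-like kinase (ZAR1_ARATH). Log2 changes of the 7 in WS48 against WW48 lay between −0.39 for M2K4_ARATH and 0.17 for RBOHE_ARATH.

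Of the 3 cell wall features, the pectinesterase fell and an extensin was called higher at 24 h. Over all features tested, 4.03% were decreased DATs and 9.27% were increased in WS24 against WW24. PME68_ARATH resembles an Arabidopsis pectinesterase. It had 11.9, 14.2 and 12.6 CPM in WS48, against 27.6, 22.9 and 27.8 CPM in WW48 and 28.4, 31.6 and 29.7 CPM in WW24, with 8.22, 10.6 and 10.6 CPM in WS24. No stressed library reached the lowest well-watered one. The log2 change was −1.02 ± 0.12 in WS48 against WW48 (adjusted p = 2.08e-05), just past the fold threshold, −1.21 ± 0.12 against WW24 (adjusted p = 5.44e-06) and −1.61 ± 0.12 in WS24 against WW24 (adjusted p = 4.59e-07). At 48 h it dropped under that threshold without WS48 replicate 1 (−0.97), WW48 replicate 1 (−0.98) or WW48 replicate 3 (−0.97), and without scaling factors (−0.89). On the study's list the only description matching pectin methylesterase was that of Zm00001d016740, of a family of invertase and pectin methylesterase inhibitors, an increased DAT with 16.2 ± 1.45 CPM in WS48 and 0.598 ± 0.307 CPM in WW48 (SD, n = 3 each).

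EXTN_MAIZE resembles the maize extensin, a structural glycoprotein of the wall, and was named here after its values were seen. It had 2.01, 1.99 and 2.86 CPM in WS24, against 1.25, 0.456 and 0.756 CPM in WW24, a log2 change of 1.46 ± 0.35 (adjusted p = 0.00489). At 48 h it had 1.31, 1.70 and 1.16 CPM in WS48 and 0.656, 0.984 and 1.19 CPM in WW48, which overlapped (log2 change 0.56 ± 0.35, adjusted p = 0.228). The 24 h and 48 h changes were not shown to differ (interaction log2 −0.90 ± 0.50, adjusted p = 0.459).

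Some DATs rested on few reads. OBP1A_MAIZE resembles a maize protein bound to oil bodies, the lipid stores of seeds. It had 0.848, 0.298 and 0.434 CPM in WS48 and 1.46, 1.14 and 1.12 CPM in WS24, against 0 in all 3 WW48 libraries and 0, 0 and 0.0458 CPM in WW24. That is 72 counts over WS48 and 0 over WW48. With a floor of 3 counts put in for WW48, WS48 was 23.6-fold higher, or 16.7-fold without WS48 replicate 1. Such a floor ratio takes the stressed counts as exact and leaves out the spread between replicates, so it is no confidence bound. Against the 2 counts of WW24 the ratio was 33.7 in WS48 (exact 95% interval 9.0 to 284) and 81.1 in WS24 (22.1 to 675). These intervals cover counting error only. The edgeR test called it in WS48 against WW48 (adjusted p = 0.000315) and against WW24 (adjusted p = 0.000908).

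PRMS_MAIZE resembles a maize pathogenesis-related protein, secreted in defence. It had 0.0688, 0.128 and 0.807 CPM in WS48 and 0.332, 0.551 and 0.245 CPM in WS24, against 0 in all 3 WW48 libraries and 0.0213, 0 and 0 CPM in WW24. WS48 replicate 3 held 39 of the 48 counts of its group. At the same floor of 3 counts, WS48 was 15.7-fold higher than WW48, and 4.51-fold higher without that replicate. WS24 held 51 counts against 1 in WW24, a ratio of 49.8 (8.55 to 2006). The edgeR test called it in WS48 against WW48 (adjusted p = 0.00575) and against WW24 (adjusted p = 0.0113), but a test against the fold threshold (glmTreat) did not call it against WW24 (adjusted p = 0.0774).

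PCF5_ORYSI resembles a TCP-family transcription factor of rice, a family that controls cell proliferation. It had 0.619, 0.446 and 0.807 CPM in WS48 and 0.707, 0.869 and 1.03 CPM in WS24, against 0, 0.0480 and 0.116 CPM in WW48 and 0.170, 0.101 and 0.0687 CPM in WW24. No stressed library overlapped the well-watered ones. Its log2 change was 3.51 ± 0.67 in WS48 against WW48 (adjusted p = 0.00115), 2.42 ± 0.61 against WW24 (adjusted p = 0.00680) and 2.89 ± 0.60 in WS24 against WW24 (adjusted p = 0.00184), with 7 counts in WW48. With glmTreat the call against WW24 was lost (adjusted p = 0.0946).

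**Figure D3:**
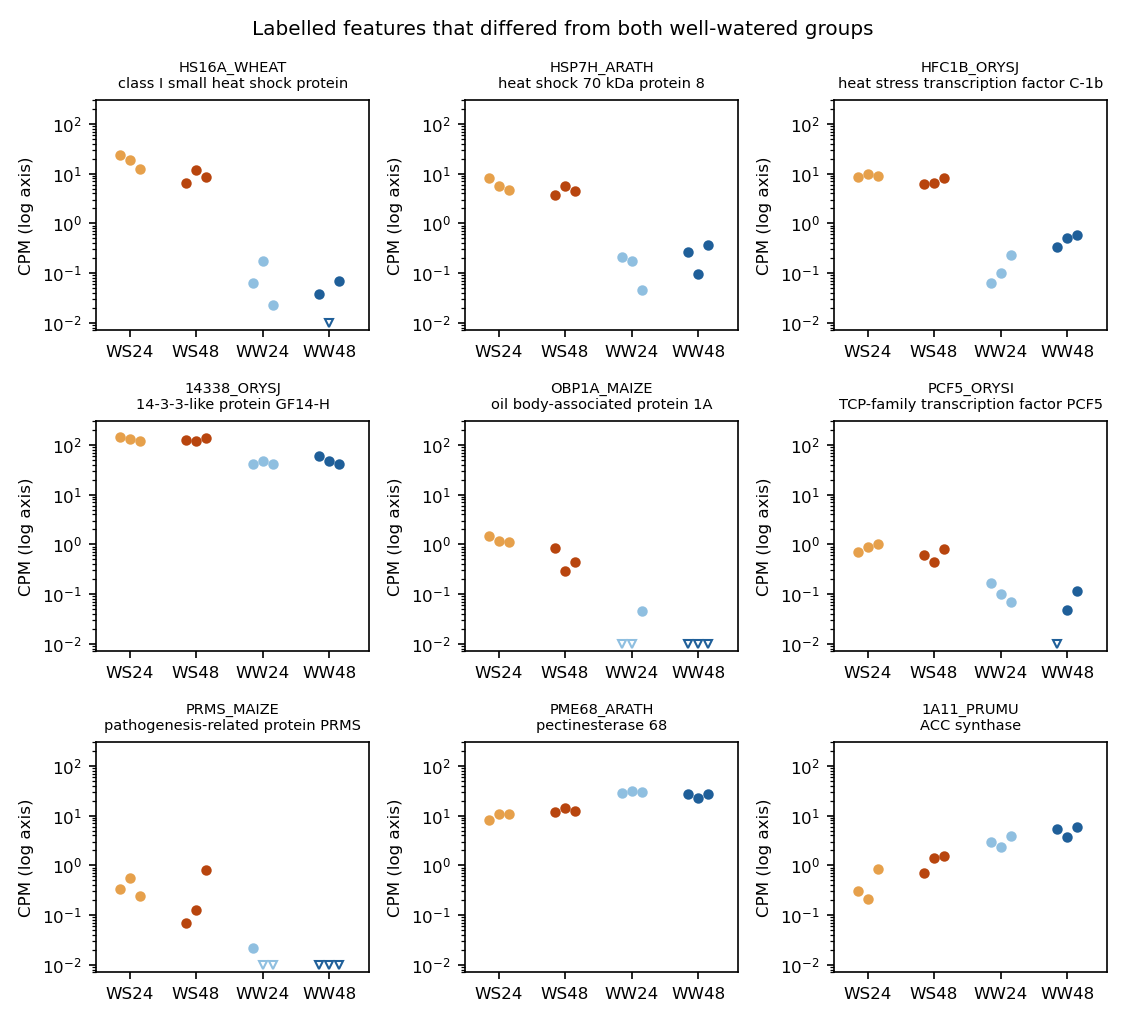
CPM on a log axis (y) for the 9 DATs in each library, by group (x); each point is a library and open triangles at the bottom mark 0 counts. In every panel the 6 WS points lie clear of the 6 WW points, above them in 7 panels and below them for PME68_ARATH and 1A11_PRUMU.

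At 24 h, 8 of the 66 features were increased and 3 decreased in WS24 against WW24, beside 9.27% and 5.64% of all features tested. All 9 DATs were among them, each in its 48 h direction, including the 4 that entered only through stressed libraries. The others were EXTN_MAIZE and AT5_ORYSJ. AT5_ORYSJ resembles an acyltransferase of rice, from a family that adds acyl groups to phenolic and other compounds. It had 4.71, 4.75 and 5.06 CPM in WS24, against 8.21, 18.2 and 18.1 CPM in WW24, a log2 change of −1.61 ± 0.26 (adjusted p = 0.000279). All stressed libraries were below all well-watered ones at that time, and WW24 replicate 1 was less than its group's other libraries. At 48 h it had 7.98, 6.33 and 10.4 CPM in WS48 and 12.9, 12.8 and 14.3 CPM in WW48 (log2 change −0.70 ± 0.25, adjusted p = 0.0413), which missed the fold threshold. That adjusted p was over 0.05 without 8 of the 12 libraries taken singly, up to 0.151 without WS48 replicate 2.

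**Figure D4:**
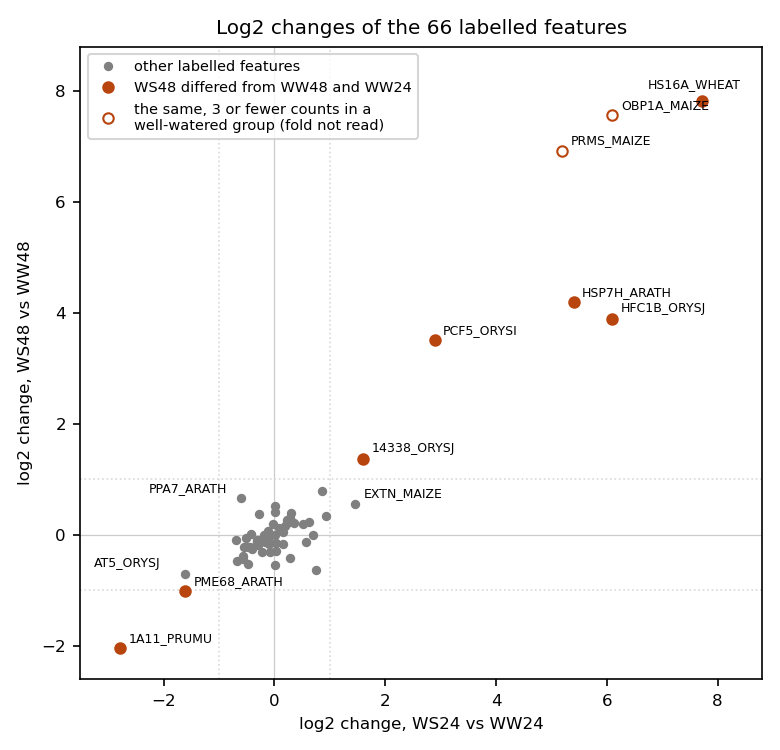
Log2 change of each of the 66 features in WS24 against WW24 (x) and in WS48 against WW48 (y), with dotted lines at −1 and 1. Filled coloured points are DATs, open ones are DATs with 3 or fewer counts in a well-watered group, whose fitted size is not read, and grey points are the rest. All 9 DATs lie in the upper right or lower left.

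By adjusted p alone, 17 of the 66 features passed in both 48 h comparisons (25.8%, beside 30.5% of all features). Beyond the 9 DATs these were 8 features with smaller changes, of which RS33_ARATH, CLC2_ORYSJ and AT5_ORYSJ lost the adjusted p in WS48 against WW48 without scaling factors. In WS24 against WW24 alone, 35 of the 66 passed (53.0%, beside 43.4% of all). PXG_LILLO resembles a caleosin-type peroxygenase of lily, a calcium-binding protein of lipid bodies. It had 173, 170.2 and 171 CPM in WS48 and 198, 179 and 223 CPM in WS24, against 94.4, 106 and 96.5 CPM in WW48 and 107, 106 and 116 CPM in WW24. It was higher in every stressed library, by 0.79 ± 0.08 on the log2 scale at 48 h (adjusted p = 7.77e-06) and 0.87 ± 0.08 at 24 h (adjusted p = 3.07e-06).

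Features naming mitochondrial proteins lay on both sides. GLYM_PEA, after serine hydroxymethyltransferase of pea, which interconverts serine and glycine, had 322, 311 and 333 CPM in WS48, against 507, 430.0 and 396 CPM in WW48 and 387, 486 and 449 CPM in WW24. Its log2 change was −0.47 ± 0.10 in WS48 against WW48 (adjusted p = 0.00190), and no stressed library overlapped the well-watered ones. MCAT_ARATH, after an Arabidopsis carrier of the mitochondrial membrane, had 55.5, 60.9 and 60.5 CPM in WS48 and 87.5, 79.3 and 72.6 CPM in WW48 (log2 change −0.44 ± 0.09, adjusted p = 0.00242). CBSX3_ARATH, after an Arabidopsis mitochondrial protein that regulates thioredoxin, was higher under stress. It had 109.9, 117 and 119 CPM in WS48 and 103, 84.4 and 85.2 CPM in WW48 (0.34 ± 0.08, adjusted p = 0.00600), and averaged 133 ± 5.27 CPM in WS24 against 69.8 ± 5.38 CPM in WW24 (SD, n = 3 each).

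All 3 features for the ribosome and translation had negative log2 changes in WS48 against WW48, between −0.52 and −0.18, none past the fold threshold. BTF3L_ARATH, after the Arabidopsis subunit of a complex that binds new polypeptides at the ribosome, had 27.5, 27.0 and 26.0 CPM in WS48 and 31.2, 37.2 and 46.9 CPM in WW48 (−0.52 ± 0.12, adjusted p = 0.00311). RS33_ARATH, a small-subunit ribosomal protein, had a log2 change of −0.26 ± 0.08 (adjusted p = 0.0225, but 0.206 without scaling factors and 0.0976 without WS48 replicate 2), and RL321_ARATH, of the large subunit, one of −0.18 (adjusted p = 0.262).

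Judged by the libraries alone, 11 features had all 6 stressed libraries above all 6 well-watered libraries (16.7%, beside 15.9% of all features) and 6 had them below (9.09%, beside 15.3%). The 9 DATs were among these 17, and 4 of the 11 had entered only through stressed libraries. The others above were PXG_LILLO, CBSX3_ARATH, CP51_WHEAT, which names a sterol-synthesis enzyme of wheat, and LEUNG_ARATH, which names an Arabidopsis transcriptional corepressor. The others below were GLYM_PEA, MCAT_ARATH, CLC2_ORYSJ, which names a rice clathrin light chain, and Y8359_ORYSI, an uncharacterized rice protein. Y8359_ORYSI averaged 97.7 ± 3.49 CPM in WS48 and 114 ± 5.45 CPM in WW48 (SD, n = 3 each), a log2 change of −0.22 ± 0.07 (adjusted p = 0.0260). Against WW24 its adjusted p was 0.0544, without WW48 replicate 2 it was 0.104, and without scaling factors the change against WW48 was −0.089 (adjusted p = 0.324).

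The feature with the most reads was not called at either time. CCDP_MAIZE resembles the cortical cell-delineating protein of maize, known from the young cortex of the root, and took 28.2 to 40.2% of the counts of all labelled features. It had 935, 951 and 1064 CPM in WS48 and 1048, 1128 and 984 CPM in WW48, which overlapped (log2 change −0.10 ± 0.09, adjusted p = 0.423). Without scaling factors this change was 0.028, so its direction against WW48 is not fixed. Against WW24, WS48 was lower (log2 change −0.51 ± 0.09, adjusted p = 0.000886), short of the fold threshold. WW48 was itself lower than WW24 (−0.41 ± 0.09, adjusted p = 0.0416). At 24 h it had 832, 839 and 922 CPM in WS24, against 1218, 1528 and 1450 CPM in WW24 (−0.69 ± 0.09, adjusted p = 6.85e-05).

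The other role groups held no DAT. Over all features tested, 5.53% were increased and 4.03% decreased DATs, so absence from groups this small is not read as a result. None of the 10 features for primary metabolism was a DAT, nor were any of the 7 for protein modification and breakdown, the 6 for transport and membrane traffic, the 6 for photosynthesis and the plastid, or the 4 for the cytoskeleton and cell cycle. A steady level was seen for HRD1_ORYSJ, named after its values were seen, which resembles a rice ubiquitin ligase that clears misfolded proteins from the endoplasmic reticulum. It averaged 47.8 ± 1.56 CPM in WS48 and 47.7 ± 0.319 CPM in WS24, against 47.6 ± 2.18 CPM in WW48 and 47.3 ± 1.10 CPM in WW24 (SD, n = 3 each). The plastid features stayed at mean levels between 0.749 and 5.81 CPM over the 12 libraries. Among the 8 for transcription, chromatin and RNA, only PCF5_ORYSI was a DAT. Between the 24 h and 48 h stress comparisons, 14 of the 66 features had log2 changes of opposite sign. That share was not counted over all features, so it is not read as a result about these.

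Few changes with time were called. In WS48 against WS24 none of the 66 features was called by edgeR, beside 0.909% of all features. At an unadjusted p under 0.05 there were 16 (24.2%), beside 14.8% of all, and DESeq2 called 3, GT4_ORYSI, HS16A_WHEAT and 1A11_PRUMU. By adjusted p alone, 1 feature passed in WS48 against WS24 (2.02% of all) and 5 in WW48 against WW24 (2.59% of all). In WW48 against WW24 only HFC1B_ORYSJ was called, beside 0.98% of all features, with a log2 change of 1.81 ± 0.38 (adjusted p = 0.0321). That call rested on 63 counts in WW48 and 17 in WW24. It was lost without WW24 replicate 1 (adjusted p = 0.0730) and 4 other libraries taken singly, and with only these groups in the fit (adjusted p = 0.172).

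Whether the stress effect differed between 48 h and 24 h was tested with the interaction, which called 2 of the 66 features, beside 0.385% of all, with 3 past the adjusted p alone, beside 0.624%. At an unadjusted p under 0.05 there were 15 (22.7%), beside 14% of all. PPA7_ARATH resembles purple acid phosphatases of Arabidopsis, enzymes that free phosphate from organic compounds. It had 100.2, 90.8 and 87.4 CPM in WS48, against 58.8, 63.5 and 54.1 CPM in WW48. At 24 h the order was turned round, with 63.1, 55.7 and 68.6 CPM in WS24, against 87.1, 97.4 and 100.5 CPM in WW24. The groups did not overlap at either time. The log2 change was 0.66 ± 0.09 at 48 h (adjusted p = 0.000104) and −0.61 ± 0.09 at 24 h (adjusted p = 0.000172), a difference of 1.26 ± 0.13 (adjusted p = 0.00202). Both treatments changed with time, short of the fold threshold. WW48 was lower than WW24 (log2 change −0.69 ± 0.09, adjusted p = 0.00507), and WS48 was higher than WS24 (0.57 ± 0.09, adjusted p = 0.00728). WS48 and WW24, the pair matched in root length, had a log2 change of −0.03 ± 0.09 (adjusted p = 0.803).

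HFC1B_ORYSJ was the other, with a smaller increase at 48 h than at 24 h. The difference was −2.19 ± 0.44 on the log2 scale (adjusted p = 0.0468). It was lost without any of 9 of the 12 libraries taken singly. Among these its adjusted p ranged up to 0.130, without WS48 replicate 1. The stressed levels, WS48 against WS24, were not shown to differ (log2 change −0.38 ± 0.22, adjusted p = 0.469). The well-watered levels were low, with 17 counts in WW24 and 63 in WW48.

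**Figure D5:**
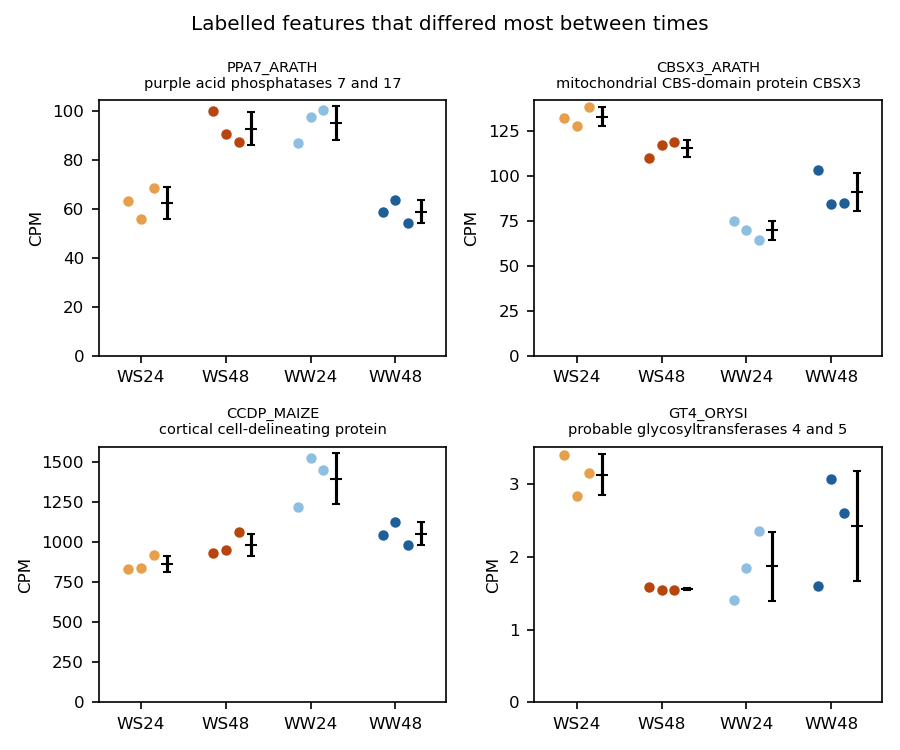
CPM (y) of 4 features in each library by group (x); points are libraries, bars the mean and SD of 3. PPA7_ARATH is higher in WS48 than in WW48 but lower in WS24 than in WW24, and CBSX3_ARATH is higher in WS at both times.

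The detection minimum was reached narrowly by PRMS_MAIZE, whose third-highest count was 15, then by PCF5_ORYSI at 39 and HF101_ORYSJ at 40. Just outside were PXG1_ARATH at 7, and 1A1C_SOYBN and RL35_WHEAT at 6 each. With at least 50 counts in 3 libraries 61 features would remain, and with 10 counts in a single library there would be 69.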

How the data were processed

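Total RNA of pooled root tips was made into strand-specific mRNA libraries and sequenced in paired-end mode. The authors deposited raw read counts per feature, which were made with HISAT2 and HTSeq. The submitters' processing notes list version 1.0 for HISAT2, 0.6.1 for HTSeq and the build B73 RefGen_v4, and the methods add an assembly for FR697. How strand was set in HTSeq is not given here, which leaves overlapping, antisense and near-identical features uncertain. The deposited normalized values, treated as a score, were not used. The supplementary tables served only for gene descriptions. Of the reads, 12.7 to 23.1% were not aligned, 1.87 to 2.25% had no feature, 0.942 to 1.08% were ambiguous and 3.20 to 3.70% had low alignment quality. These stayed out of library sizes.

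Groups and replicate numbers came from sample titles. Counts were tested in R 4.3.3 with edgeR 4.0.16, using filterByExpr (minimum count 10), TMM factors (0.926 to 1.06), a single fit of all 12 libraries with a mean per group, and the quasi-likelihood F-test. The biological coefficient of variation was 15.9%. The SE is the log2 change over the square root of F. The procedure was tested on simulated data. No replicates agreed within sampling noise. Same-numbered libraries did not deviate together (1 of 18 pairs with r over 0.1).

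The 66 features, the role groups, the lists, the tests and the rule for named features were chosen with earlier results of these data known. The rule named all DATs, up to 5 called features in each direction at 24 h, up to 3 called with time or in the interaction, the 5 with the most reads, the 3 on each side of the detection minimum, and 5 that passed the adjusted p without the fold. Alternatives were DESeq2 1.42.0 (size factors and test), no scaling, other filters, glmTreat (a test against the fold threshold), a replicate block, only the groups compared, and each library left out. Sequences are not shown because none were in the sources used here.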

Additional observations from a re-analysis of the deposited data

Results flagged for a closer look

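The stress effect on PPA7_ARATH differed between times by 1.26 on the log2 scale (48 h minus 24 h, interaction test in edgeR, adjusted p = 0.00202), with every stressed library above its age-matched controls at 48 h and below them at 24 h. That on HFC1B_ORYSJ differed by −2.19 (adjusted p = 0.0468), a call lost in most of the fits with a library left out.

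Labels under the detection minimum were not used in the comparisons above. Of these, PXG1_ARATH and MFT2_ORYSJ were picked because all 6 stressed libraries were above all 6 well-watered ones. Their direction was built into that choice, and their values are a description. PXG1_ARATH had 53 counts over the 6 stressed libraries and 0 over the 6 well-watered ones. It names an Arabidopsis peroxygenase, of the same family as PXG_LILLO. Each stressed library held between 2 and 25 counts, with 13 in all in WS48 and 40 in WS24. At a floor of 3 counts over the well-watered group, WS24 was 13.0-fold higher than WW24 and WS48 4.25-fold higher than WW48. These ratios take the stressed counts as exact and are no confidence bounds. Without WS24 replicate 2, which held 25 of the 40 counts, the ratio at 24 h was 7.56. MFT2_ORYSJ, which names a rice protein of the PEBP family, had 18 counts over the stressed libraries, between 1 and 6 in each, and 0 over the well-watered ones.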

How the results depend on the processing

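The 7 increased DATs and the 8 increased and 3 decreased features at 24 h kept these counts without any library taken singly. The 66 features had been fixed on all 12 libraries. In each increased set, 4 had entered only through stressed libraries, so their direction was built in and their kept calls are no support. Decreased DATs ranged from 0 to 2. Calls ranged from 0 to 1 in WS48 against WS24, from 0 to 1 in WW48 against WW24 and from 1 to 3 in the interaction. By adjusted p alone there were 8 decreased DATs, 17 increased and 18 decreased features at 24 h, 1 call in WS48 against WS24 and 5 in WW48 against WW24. Without scaling factors 1 decreased DAT remained, the median of all features moved to 0.13 at 48 h and 0.15 at 24 h, and the log2 change of CCDP_MAIZE in WS48 against WW48 turned to 0.028. With at least 3 CPM in a library, which left OBP1A_MAIZE, PCF5_ORYSI and PRMS_MAIZE untested, there were 4 increased DATs and 4 increased features at 24 h. DESeq2 gave 3 calls in WS48 against WS24. With glmTreat, which asks for more than the fold threshold, there were 5 increased and 0 decreased DATs, 6 increased and 2 decreased features at 24 h, and 0 calls in WW48 against WW24 and in the interaction. With only the groups compared in the fit there were 6 increased DATs (PRMS_MAIZE gave no value), 2 calls in WS48 against WS24 and 0 in WW48 against WW24. The replicate block left 1 interaction call (HFC1B_ORYSJ had an adjusted p of 0.0529). Pairing by replicate number was not seen, since the correlation of same-numbered libraries ranged from −0.50 to 0.11. For differently numbered ones it reached 0.48 (WS48 replicate 2 with WW48 replicate 3). Whether libraries with other numbers shared an experiment was not tested. Where no cause is stated, the cause was not tested. For the named features, a call, which needs the fold and the adjusted p together, was kept or stayed absent in 437 values with a library left out and was lost in 19. Under the other settings these numbers were 278 and 13, and 1 value reversed. Of the 14 features past the adjusted p but under the fold in WS48 against WW48, 8 stayed past it in every setting but glmTreat and 6 (Y8359_ORYSI, AT5_ORYSJ, RS33_ARATH, CLC2_ORYSJ, SPT52_ARATH and OCT4_ARATH) did not. Depth limits the features with few counts in well-watered roots (HS16A_WHEAT, OBP1A_MAIZE, PRMS_MAIZE, PCF5_ORYSI), and 3 libraries per group limit small changes.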

Other observations

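Some features under the detection minimum were picked here after their counts were seen. Their direction was built into that choice, and the values are a description. Others were alike in both treatments, such as TL15A_ARATH (13 counts stressed, 12 well-watered) and RL5_DUNSA (4 and 4). PIN9_ORYSJ, which names a rice auxin efflux carrier, had 0 counts over the 6 stressed libraries and 13 over the 6 well-watered ones. Of these, 9 were in WW48 and 4 in WW24, all 4 in replicate 3. AAE20_ARATH, which names an Arabidopsis acyl-activating enzyme, had 0 counts over the stressed libraries and 30 over the well-watered ones, but 15 of these were in WW48 replicate 2 and 14 in WW24 replicate 1. RL35_WHEAT, a ribosomal protein label, had 58 counts over the stressed and 1 over the well-watered libraries, and 39 of the 58 were in WS48 replicate 3, the library that also held most of the WS48 counts of PRMS_MAIZE.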
